A study of Solanum lycopersicum with 27 samples.

Results

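The CYP707A genes of tomato (Solanum lycopersicum) encode abscisic acid 8'-hydroxylases, cytochrome P450 enzymes of the endoplasmic reticulum that begin the main route of abscisic acid (ABA) breakdown. The genes described here were taken by locus identifier: CYP707A1 (Solyc04g078900.3), CYP707A2 (Solyc08g005610.3), CYP707A3 (Solyc04g071150.3) and CYP707A4 (Solyc01g108210.4). All 4 were among the 34688 loci of the count table, and all 4 were among the 19087 loci that passed the filter on low counts. The names came with the gene set and not from the count table, which lists identifiers only.

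ABA is the hormone that closes stomata and switches on protective genes when a leaf loses water. Its level in a leaf is set by synthesis, by storage as a glucose ester and by hydroxylation, after which the hydroxylated product turns into phaseic acid, which has much less activity. In Arabidopsis, CYP707A genes are induced by ABA itself, by drought, and strongly when a wilted plant is watered again or moved to humid air. In tomato, CYP707A1 and CYP707A2 are best known from ovaries and fruit, where lowering CYP707A2 raises ABA.

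Polyadenylated RNA was sequenced from leaves of WT tomato, cultivar MoneyMaker, with plants that were 50 days old when all water was withheld in the water deficit arm. Control plants went on being watered to soil capacity every other day, and both arms were grown in soil with 16 h days and 8 h nights. Mature leaf, as a single leaflet, was collected after 4, 5, 8 and 10 days, and young leaf, as a whole developing leaf, after 10 days. The deficit groups held 3 libraries each, except 2 at mature day 8. The control groups held 3 libraries each, except 2 at mature day 8 and 2 at mature day 10. The labels do not say whether replicates came from separate plants, so p-values measure the spread between these libraries. In whole leaf tissue, fewer cells of a type and less RNA per cell cannot be told apart.

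One of the 27 libraries stands apart. Replicate 1 of the mature day 10 deficit group correlated over all tested loci at r = 0.994 and r = 0.993 with the 2 control libraries of that day, and at r = 0.888 and r = 0.884 with the other 2 libraries of its own group. It was kept under its label, so arms are named by label, and tests that it enters, or whose call it changes, are also given without it. Its spread enters the estimate that all groups share, so that leaving it out also changes the errors of comparisons it takes no part in. It was singled out by its likeness to control libraries. Leaving it out therefore tends to widen the arms gap at mature day 10 and to lower the shared spread. Calls made without it are thus no separate support for those made with it. Total counts per library ran from 14725924 to 19642202.

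Levels are CPM, the count of a gene relative to the TMM-scaled total of its library, and are compared between libraries and not between genes, because no transcript lengths were used. CYP707A1 had 321 to 1501 counts per library, CYP707A2 had 100 to 456, CYP707A4 had 20 to 158 and CYP707A3 had 7 to 43. Counting error alone is therefore large for CYP707A3, where a count of 7 has an exact 95% Poisson interval of 2.81 to 14.4. For CYP707A1 the lowest count of 321 has an interval of 287 to 358.

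**Figure D1:**
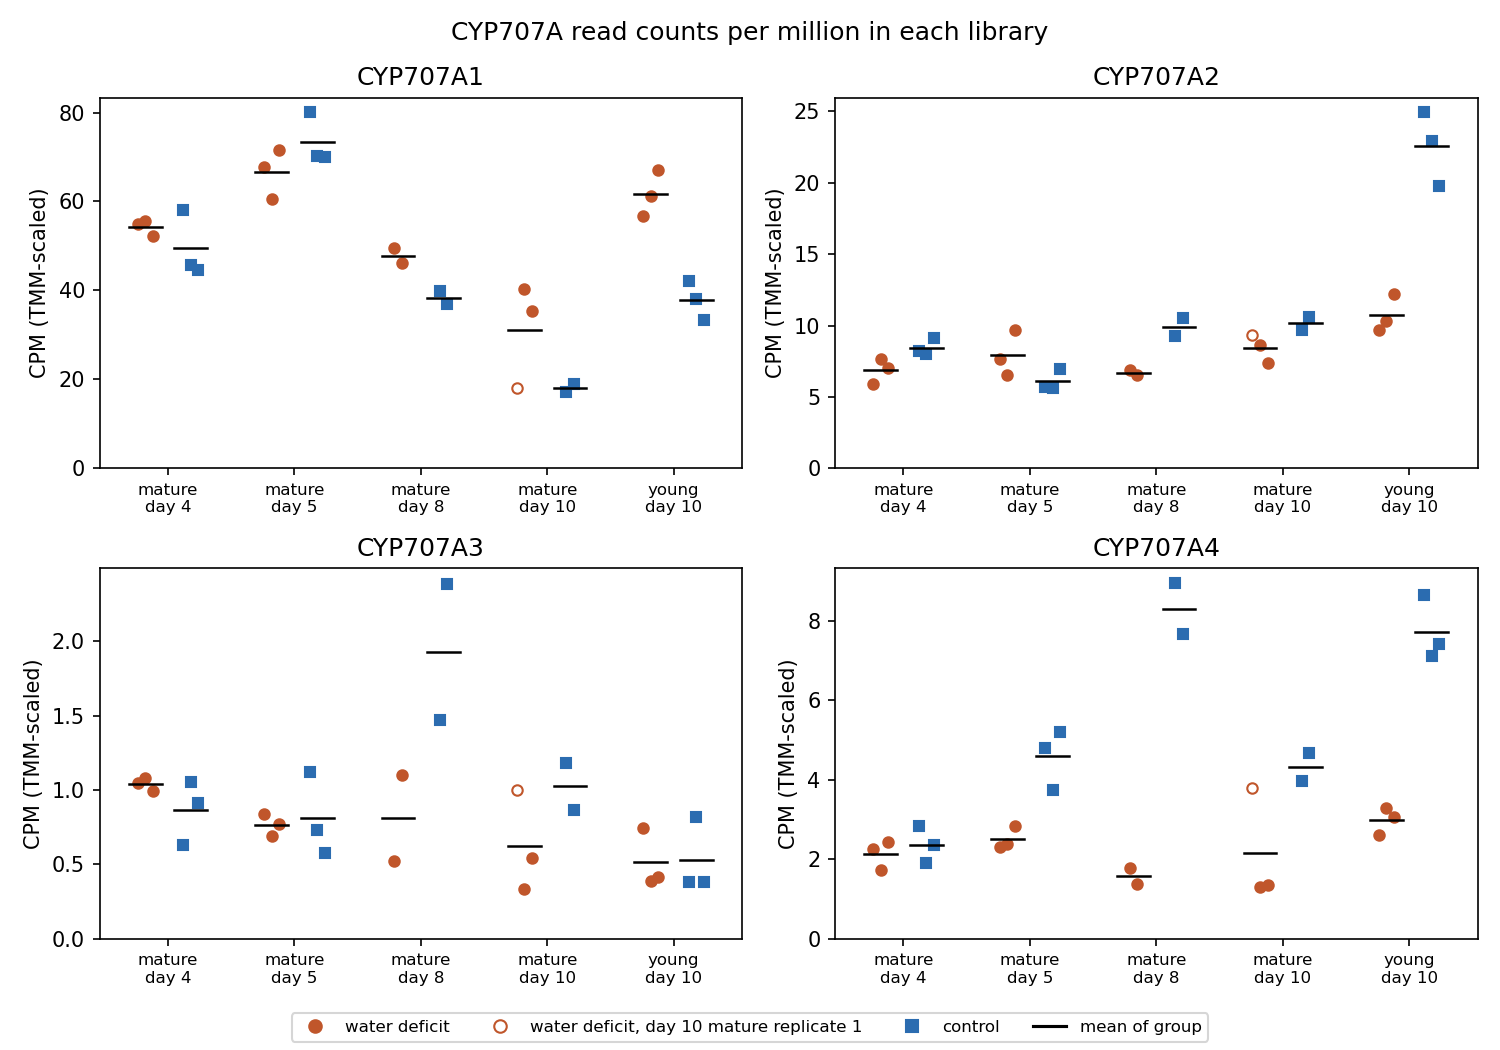
Level of each CYP707A gene in TMM-scaled CPM (vertical axes, from 0) for each library, with deficit-labelled libraries as circles, control-labelled libraries as squares, and a bar at the mean of each group. The open circle is replicate 1 of the mature day 10 deficit group, which at CYP707A1 had 18.01 CPM beside 17.2 and 18.9 CPM in the control libraries of that day.

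Of the 4 genes, CYP707A4 had the arms difference of greatest size on the log2 scale at mature day 8 and in young leaf. It was lower in deficit-labelled than in control-labelled leaves at mature days 5, 8 and 10 and in young leaf, by 5.25-fold at day 8. At day 4, deficit libraries had 2.26, 1.73 and 2.43 CPM, against 2.83, 1.89 and 2.37 CPM in control libraries. The arms overlapped on that day, and the log2 fold change was -0.14 (SE 0.29, 95% interval -0.75 to 0.46). At day 5, deficit libraries had 2.30, 2.39 and 2.84 CPM, against 4.80, 3.75 and 5.21 CPM in control libraries. At day 8, deficit libraries had 1.77 and 1.38 CPM, against 8.95 and 7.67 CPM in control libraries. Every deficit library of days 5 and 8 lay below every control library of its day. The log2 fold change was -0.87 at day 5 (SE 0.28, edgeR quasi-likelihood test with Benjamini-Hochberg adjustment over all loci, adjusted p = 0.0232) and -2.39 at day 8 (SE 0.35, adjusted p = 1.15e-05). The day 8 call held in each of the 4 fits without one of its libraries. At day 5 it held without control replicate 2 or deficit replicate 3. It did not hold without control replicate 1 (log2 fold change -0.85), control replicate 3 (-0.78), deficit replicate 1 (-0.81) or deficit replicate 2 (-0.84). In fits without the library that stands apart, the day 5 call held in 7 of 7, each further leaving out 1 library of that day or none.

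At mature day 10, deficit replicates 2 and 3 had 1.29 and 1.35 CPM of CYP707A4 and replicate 1 had 3.79 CPM, against 3.97 and 4.67 CPM in control libraries. The groups did not overlap, but replicate 1 lay close to the controls. The log2 fold change was -0.998 (SE 0.31, adjusted p = 0.0196), and -1.71 (SE 0.24, adjusted p = 2.35e-07) without replicate 1. With replicate 1 in, the call did not hold without control replicate 2 (-1.11), control replicate 3 (-0.88), deficit replicate 2 (-0.71) or deficit replicate 3 (-0.78). Without replicate 1 it held in 5 of 5 fits. In young leaf, deficit libraries had 2.61, 3.29 and 3.06 CPM, against 8.65, 7.12 and 7.43 CPM in control libraries. The log2 fold change there was -1.37 (SE 0.27, adjusted p = 0.000147), or 2.58-fold lower than in control, which held in each of the 6 fits without one of its libraries.

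CYP707A1 moved the other way at day 10, being higher in deficit-labelled leaf of both ages. In young leaf, deficit libraries had 56.7, 61.1 and 67.1 CPM, against 42.1, 38.2 and 33.3 CPM in control libraries. The lowest deficit library thus lay above the highest control library, and the log2 fold change was 0.70 (SE 0.18, adjusted p = 0.00175, 1.63-fold). In mature leaf at day 10, deficit replicates 2 and 3 had 40.3 and 35.3 CPM and replicate 1 had 18.01 CPM, against 17.2 and 18.9 CPM in control libraries. Replicate 1 lay between both controls, so the groups overlapped. The log2 fold change was 0.79 (SE 0.21, adjusted p = 0.00989), and 1.06 (SE 0.13, adjusted p = 1.46e-08) without replicate 1. With replicate 1 in, the call did not hold without control replicate 2 (0.72), control replicate 3 (0.85) or deficit replicate 2 (0.55). Without replicate 1 it held in 5 of 5 fits. In a fit of the compared groups alone, the adjusted p at mature day 10 was 0.49 for CYP707A1 and for CYP707A4. The young leaf call held in each of the 6 fits without one of its libraries.

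On the earlier days the arms were closer at CYP707A1. At day 8, deficit libraries had 49.6 and 46.1 CPM, against 39.9 and 36.8 CPM in control libraries. These groups did not overlap, but the log2 fold change of 0.32 (SE 0.22) had an adjusted p of 0.208. Without the library that stands apart it was 0.33 (SE 0.12, adjusted p = 0.0128). That call in turn did not hold when control replicate 2 (0.27) or deficit replicate 1 (0.27) of day 8 was left out as well. At day 5, deficit libraries had 67.7, 60.7 and 71.5 CPM, against 80.1, 70.1 and 69.9 CPM in control libraries, and at day 4 they had 54.9, 55.5 and 52.3 CPM, against 58.0, 45.8 and 44.7 CPM. The arms overlapped on both days, with log2 fold changes of -0.14 (95% interval -0.51 to 0.23) at day 5 and 0.13 (95% interval -0.24 to 0.51) at day 4. At day 4 it was called in 1 of 7 fits without the library that stands apart, the one also without control replicate 1 (0.26, adjusted p = 0.0437).

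CYP707A2 was lower in deficit-labelled young leaf and mature day 8 leaf. In young leaf, deficit libraries had 9.70, 10.3 and 12.2 CPM, against 25.0, 22.9 and 19.8 CPM in control libraries. The arms lay far apart, and the log2 fold change was -1.07 (SE 0.14, adjusted p = 1.79e-06, 2.10-fold lower), which held in each of the 6 fits without one of its libraries. In mature leaf at day 8, deficit libraries had 6.86 and 6.51 CPM, against 9.26 and 10.5 CPM in control libraries. The fold change was smaller than in young leaf, at -0.56 on the log2 scale (SE 0.18, adjusted p = 0.00885). It did not hold without control replicate 2 (-0.45) or deficit replicate 2 (-0.51). With the library that stands apart left out it held in 4 of 5 fits, and was not called when control replicate 2 (-0.46) was left out as well.

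On the other days CYP707A2 was not called. At day 10, mature deficit libraries had 9.37, 8.65 and 7.35 CPM in replicates 1, 2 and 3, against 9.71 and 10.6 CPM in control libraries. The groups did not overlap, and the log2 fold change was -0.26 (95% interval -0.59 to 0.07), or -0.34 without replicate 1 (adjusted p = 0.0741). At day 4, deficit libraries had 5.88, 7.66 and 7.02 CPM, against 8.23, 7.99 and 9.10 CPM in control libraries, with a log2 fold change of -0.30 (95% interval -0.60 to 0.0032). These groups did not overlap either. At day 5 the sign was the opposite, with 7.65, 6.53 and 9.69 CPM in deficit libraries, against 5.71, 5.60 and 6.94 CPM in control libraries, and the groups overlapped. That log2 fold change of 0.38 (SE 0.15) had an adjusted p of 0.0572. It was called when control replicate 3 (0.48) or deficit replicate 2 (0.51) was left out, and also without the library that stands apart (0.37, adjusted p = 0.0359). That last call did not hold when control replicate 1 (0.33), control replicate 2 (0.32) or deficit replicate 3 (0.22) of day 5 was left out as well.

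CYP707A3 gave few reads, and its arms differed by the test only at mature day 8. Deficit libraries had 10 and 20 counts (0.520 and 1.10 CPM), against 24 and 43 counts (1.47 and 2.39 CPM) in control libraries. Both deficit libraries lay below both controls. The log2 fold change was -1.26 (SE 0.45, adjusted p = 0.0177). It did not hold without control replicate 2 (-0.84) or deficit replicate 1 (-0.79), with the library that stands apart in or left out. At mature day 10, deficit replicates 2 and 3 had 7 and 8 counts and replicate 1 had 19, against 22 and 16 counts in control libraries. Replicate 1 lay between both controls. The log2 fold change was -0.71 (SE 0.44, adjusted p = 0.1997), and -1.27 (SE 0.47, adjusted p = 0.0189) without replicate 1. That second call did not hold when control replicate 2 (-1.03) or deficit replicate 2 (-0.93) was left out as well. At days 4 and 5 and in young leaf the arms overlapped, and the 95% intervals of the log2 fold change were -0.52 to 1.05, -0.91 to 0.74 and -0.98 to 0.88.

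Many loci differed between the arms, so the calls of the 4 genes are given beside the share of all tested loci called. At mature day 4 none of the 4 genes was called by edgeR's quasi-likelihood test, which called 11.8% of all loci. DESeq2 called none of the 4 either, and its share of all loci is not given here. With all libraries in, 0 of the 4 had an unadjusted p under 0.05 by either tool. The share of all loci under that unadjusted threshold is not given here either. CYP707A2, at 0.0523 by edgeR, had an unadjusted p of 0.034 without the library that stands apart, 0.047 with RLE scaling, 0.0423 without the filter on low counts and 0.0276 in a fit of the compared groups alone, and was called in none of these. At day 5, 1 of 4 was called lower, where 13.2% of loci were called lower. At day 8, 3 of 4 were called lower, where 32.5% of loci were. At mature day 10, 1 was called higher (22.7% of loci) and 1 lower (12.4% of loci). In young leaf, 1 was called higher (36.2% of loci) and 2 lower (35.2% of loci). Without the library that stands apart, the number of the 4 genes called was 0 at day 4, 2 at day 5, 4 at day 8, 3 at mature day 10 and 3 in young leaf, where 31.0%, 43.5%, 72.5%, 62.3% and 75.3% of loci were called. The median log2 fold change of the 4 genes was -0.0062 at mature day 4 and -0.11 at mature day 5, beside medians over all loci of 0.0026 and -0.00059. It was -0.91 at mature day 8, -0.49 at mature day 10 and -0.56 in young leaf, beside medians over all loci of 0.02, 0.02 and 0.0074. CYP707A1 had the opposite sign in these last comparisons (0.32, 0.79 and 0.70), so the medians do not describe a fall shared by all 4 genes. At mature day 10 the median of the 4 genes was -0.80 without the library that stands apart.

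**Figure D2:**
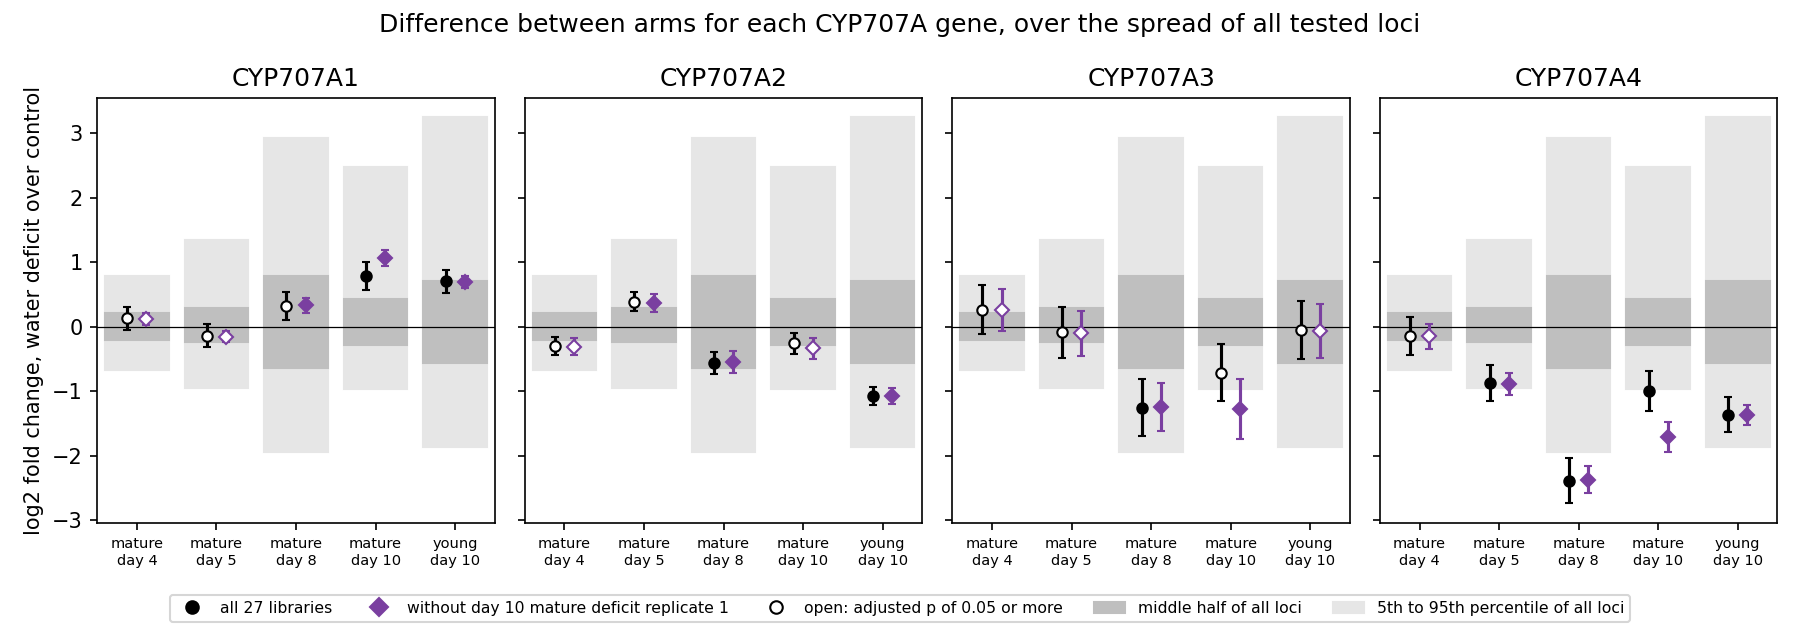
Log2 fold change of each CYP707A gene, deficit over control (vertical axis), on each day and leaf age, with bars of 1 SE; circles are fits of all 27 libraries, diamonds fits without the library that stands apart, and open symbols were not called. Dark and light grey bands span the 25th to 75th and the 5th to 95th percentile of all tested loci, and CYP707A4 at day 8, at -2.39, lies below the 5th percentile.

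For mature leaf, 3 interaction terms asked whether the gap between the arms depended on the day. The test called CYP707A4 (adjusted p = 0.00293), CYP707A2 (adjusted p = 0.00703) and CYP707A1 (adjusted p = 0.0422), but not CYP707A3 (adjusted p = 0.115), where 57.0% of all loci were called. CYP707A4 and CYP707A2 were called in each of the 20 fits that left out one other mature library. CYP707A1 was called in 4 of these 20, those without a control library of day 4 or without day 5 deficit replicate 3, and its adjusted p reached 0.129 without day 10 control replicate 2. It was 0.0617 with a replicate block and 0.0745 in a fit of the compared groups alone. Without the library that stands apart all 4 were called, CYP707A3 at an adjusted p of 0.0165, where 73.6% of loci were. That call of CYP707A3 did not hold when day 8 control replicate 2 (adjusted p = 0.0593) or day 8 deficit replicate 1 (adjusted p = 0.0555) was left out as well.

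Between days 5 and 8 the arms difference of CYP707A4 shifted by -1.52 on the log2 scale (SE 0.44, adjusted p = 0.00936), and that of CYP707A2 by -0.95 (SE 0.23, adjusted p = 0.00296), where 21.0% of loci changed that way. The change of CYP707A4 was not called without day 8 deficit replicate 2 (adjusted p = 0.0554). Between days 8 and 10 the arms difference of CYP707A4 became less negative by 1.39 (SE 0.47, adjusted p = 0.043), where 9.85% of loci changed that way. It was not called without the filter on low counts (adjusted p = 0.0563) or in a fit of the compared groups alone (adjusted p = 0.396). This last change was called in only 2 of the 8 fits without another library, those without day 10 deficit replicate 2 (1.68) or 3 (1.62). It was 0.66 (adjusted p = 0.144) without the library that stands apart, so that it rests on that library. In that same fit, where 12.2% of loci changed that way, CYP707A1 was called, its arms difference growing by 0.73 between days 8 and 10 (SE 0.17, adjusted p = 0.00221), in 9 of 9 fits; with all libraries the value was 0.47 (adjusted p = 0.289). Other shifts called only without that library were those of CYP707A1 between days 5 and 8 (0.48, adjusted p = 0.00624, 58.0% of loci) and, between days 4 and 5, of CYP707A2 (0.68, adjusted p = 0.011) and CYP707A4 (-0.73, adjusted p = 0.0333), where 26.0% of loci were called. The shift of CYP707A1 held in 10 of 11 fits and was not called without day 8 control replicate 2 (0.41), that of CYP707A2 held in 13 of 13 and that of CYP707A4 in 6 of 13.

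Each arm was then followed over the days of mature leaf. In the deficit-labelled arm, CYP707A4 averaged 2.14 ± 0.37 CPM at day 4 (SD, n = 3), 2.51 ± 0.29 at day 5 (n = 3), 1.57 ± 0.27 at day 8 (n = 2) and 2.14 ± 1.43 at day 10 (n = 3), or 1.32 ± 0.04 without replicate 1 (n = 2). In the control-labelled arm it averaged 2.36 ± 0.47 CPM at day 4 (SD, n = 3), 4.59 ± 0.75 at day 5 (n = 3), 8.31 ± 0.90 at day 8 (n = 2) and 4.32 ± 0.49 at day 10 (n = 2). The control level thus was higher at days 5 and 8 than at day 4, while every deficit library of days 4, 5 and 8 stayed below 3 CPM. The test over days did not call CYP707A4 in the deficit arm with all libraries (adjusted p = 0.376), but did so without the library that stands apart (adjusted p = 0.00493), in 11 of 11 fits and beside 64.6% of loci. In the control arm it called CYP707A4 (adjusted p = 0.00024) in each of the 10 fits without one of the libraries.

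CYP707A1 had its highest mean at day 5 and its lowest at day 10 in both arms. In the deficit-labelled arm it averaged 54.2 ± 1.74 CPM at day 4 (SD, n = 3), 66.6 ± 5.51 at day 5 (n = 3), 47.8 ± 2.46 at day 8 (n = 2) and 31.2 ± 11.7 at day 10 (n = 3), or 37.8 ± 3.54 without replicate 1 (n = 2). In the control-labelled arm the means were 49.5 ± 7.39, 73.4 ± 5.84, 38.4 ± 2.16 and 18.1 ± 1.22 CPM on the same days (SD, n = 3, 3, 2 and 2). The test over days called it in both arms (adjusted p = 0.00059 under deficit, 2.17e-06 under control), in each fit without one of the libraries. Under deficit the adjusted p of CYP707A1 was 2.26e-06 without the library that stands apart.

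CYP707A2 and CYP707A3 changed over days in the control-labelled arm. In the deficit-labelled arm the 4 day means of CYP707A2 lay between 6.69 and 8.46 CPM, and the test over days had an adjusted p of 0.165, or 0.273 without the library that stands apart. In the control-labelled arm CYP707A2 averaged 8.44 ± 0.58 CPM at day 4 (SD, n = 3), 6.09 ± 0.75 at day 5 (n = 3), 9.88 ± 0.88 at day 8 (n = 2) and 10.1 ± 0.62 at day 10 (n = 2), with an adjusted p of 0.00123 and a call in each of the 10 fits without one of the libraries. CYP707A3 had an adjusted p of 0.41 in the deficit arm, where its 4 day means lay between 0.62 and 1.04 CPM. Without the library that stands apart the adjusted p of CYP707A3 was 0.0728, and it was called when day 8 deficit replicate 1 (0.0413) or 2 (0.0415) was left out as well. In the control arm CYP707A3 averaged 0.87 ± 0.22, 0.81 ± 0.28, 1.93 ± 0.65 and 1.02 ± 0.22 CPM on days 4, 5, 8 and 10 (adjusted p = 0.0276). That call rests on day 8 control replicate 2, without which the adjusted p was 0.443, and it also missed the threshold without day 5 control replicate 2 (0.0501) or 3 (0.0518). Over all loci, the test over days called 49.3% in the deficit arm, where 1 of the 4 genes was called, and 75.1% in the control arm, where all 4 were. Leaves of different days were collected separately, and within an arm the day and its collection cannot be told apart.

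Steps from one day to the next were also tested within each arm. In the deficit-labelled arm with all libraries, the edgeR adjusted p of the 4 genes ran from 0.371 to 0.742 between days 4 and 5. Between days 5 and 8 it ran from 0.128 to 0.940. Over all loci, the median absolute log2 fold change at these steps was 0.17 and 0.24. The share of all loci called at those steps is not given here. The only step called was the fall of CYP707A1 by 0.62 between days 8 and 10 (SE 0.20, adjusted p = 0.0364), where 18.1% of loci were called. With that library in, the call did not hold without day 8 deficit replicate 1 (-0.57) or 2 (-0.67), with a replicate block (adjusted p = 0.0539) or in a fit of the compared groups alone (adjusted p = 0.706). It was -0.34 (adjusted p = 0.0344) without the library that stands apart, and held in 2 of 5 fits. It was then not called when day 8 deficit replicate 1 (-0.28) or 2 (-0.39) or day 10 deficit replicate 3 (-0.24) was left out as well. Without that library, CYP707A1 was also called between days 4 and 5 (0.29, adjusted p = 0.0182, 24.7% of loci) in 4 of 7 fits. Between days 5 and 8, where 31.6% of loci were then called, CYP707A1 (-0.46, adjusted p = 0.00125) was called in 6 of 6 fits and CYP707A4 (-0.65, adjusted p = 0.0283) in 4 of 6.

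Within the control-labelled arm, all 4 genes changed between days 5 and 8, a step at which 50.3% of loci were called. CYP707A1 fell by 0.94 on the log2 scale (SE 0.21, adjusted p = 0.00112), while CYP707A2 rose by 0.70 (SE 0.16, adjusted p = 0.00157), CYP707A3 by 1.25 (SE 0.40, adjusted p = 0.014) and CYP707A4 by 0.86 (SE 0.29, adjusted p = 0.0177). The CYP707A4 step missed the threshold without day 5 control replicate 2 (0.72) or day 8 control replicate 1 (0.73), and the CYP707A3 step without day 5 control replicate 3 (1.05) or day 8 control replicate 2 (0.83). Between days 8 and 10, where 24.0% of loci were called, CYP707A1 fell by a further 1.09 (SE 0.23, adjusted p = 0.00203). CYP707A4 fell by 0.94 at that step (SE 0.32, adjusted p = 0.0366), a call that held in none of the 4 fits without one of its libraries, not without the filter on low counts (adjusted p = 0.0521), and in 5 of 5 fits without the library that stands apart. Between days 4 and 5, where 19.2% of loci were called, CYP707A1 rose by 0.57 (SE 0.18, adjusted p = 0.0311) and CYP707A4 by 0.95 (SE 0.28, adjusted p = 0.0201), and CYP707A2 fell by 0.47 (SE 0.15, adjusted p = 0.0291). These calls held in 1, 2 and 1 of the 6 fits without one of the libraries of days 4 and 5, and in 7 of 7 fits for each gene without the library that stands apart. CYP707A3 at the step between days 8 and 10 was called only without the library that stands apart (-0.90, adjusted p = 0.0441, 41.3% of loci), in 2 of 5 fits. These steps share libraries with each other and with the tests over days.

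Young and mature leaf were compared within each arm at day 10. Mature leaf was a single leaflet and young leaf a whole developing leaf, so age and part sampled cannot be told apart. Among deficit-labelled libraries, CYP707A1 was higher in young than in mature leaf, at 61.6 ± 5.20 CPM (SD, n = 3) against 31.2 ± 11.7 CPM (n = 3), 0.98 higher on the log2 scale (SE 0.18, adjusted p = 0.000264), where 19.7% of loci were called higher. Without replicate 1 of the mature group it was 0.69 (SE 0.11, adjusted p = 4.97e-06). It was not called in a fit of the compared groups alone (0.98, adjusted p = 0.112). CYP707A4 had 2.99 ± 0.35 CPM in young leaf and 2.14 ± 1.43 CPM in mature leaf, with a log2 fold change of 0.47 (adjusted p = 0.204). Without replicate 1 it was 1.17 (SE 0.23, adjusted p = 0.000148) and held in 6 of 6 fits, in a comparison that called 21.2% of loci higher. CYP707A2 had 10.7 ± 1.30 CPM in young and 8.46 ± 1.02 CPM in mature leaf (0.34, adjusted p = 0.0635), and was called without replicate 1 (0.40, adjusted p = 0.0332). That call did not hold when mature replicate 3 (0.29) or young replicate 3 (0.32) was left out as well. CYP707A3 was not called (adjusted p = 0.634, or 0.721 without replicate 1).

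Among control-labelled libraries, young leaf had more CYP707A2, at 22.6 ± 2.62 CPM (SD, n = 3) against 10.1 ± 0.62 CPM in mature leaf (n = 2), 1.15 higher on the log2 scale (SE 0.16, adjusted p = 2.85e-05). It also had more CYP707A1, at 37.9 ± 4.38 CPM against 18.1 ± 1.22 CPM, 1.07 higher on the log2 scale (SE 0.21, adjusted p = 0.00129). CYP707A4 had 7.73 ± 0.81 CPM in young and 4.32 ± 0.49 CPM in mature leaf, and the log2 fold change of 0.84 (SE 0.30) had an adjusted p of 0.0557. It was called without the library that stands apart (0.82, adjusted p = 0.000255). Thus 2 of 4 genes were called higher in young leaf where 9.54% of loci were, and 3 of 4 where 17.8% were without that library. CYP707A3 had 0.53 ± 0.25 CPM in young and 1.02 ± 0.22 CPM in mature control leaf (adjusted p = 0.156).

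Whether the difference between the arms itself differed between young and mature leaf was tested directly. CYP707A2 was called, with an arms difference of -1.07 in young leaf and -0.26 in mature leaf, which differ by -0.81 on the log2 scale (SE 0.21, adjusted p = 0.0148), where 8.78% of loci were called in that direction. Without replicate 1 of the mature deficit group it was -0.74 (SE 0.21, adjusted p = 0.00957). The call did not hold without mature control replicate 2 (-0.75, adjusted p = 0.0833), and with replicate 1 left out as well it did not hold without mature deficit replicate 2 (-0.60) either. It was not called in a fit of the compared groups alone (adjusted p = 0.0933). For CYP707A1, CYP707A3 and CYP707A4 the 95% intervals of the same difference were -0.65 to 0.49, -0.65 to 1.97 and -1.23 to 0.49. Without replicate 1 they were -0.68 to -0.041, -0.082 to 2.50 and -0.25 to 0.94, and none of these 3 genes was called (adjusted p = 0.102, 0.185 and 0.444).

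Over the 10 groups the levels did not follow one order. CYP707A1 was highest in mature day 5 leaf of both arms, whose libraries overlapped, and lowest in mature day 10 control leaf, at 18.1 ± 1.22 CPM. Young deficit leaf came next after mature day 5, at 61.6 ± 5.20 CPM, and overlapped mature day 5 deficit leaf. CYP707A2 was highest in young control leaf, at 22.6 ± 2.62 CPM, which stood clear of the next group, and lowest in mature day 5 control leaf, at 6.09 ± 0.75 CPM. CYP707A3 was highest in mature day 8 control leaf, at 1.93 ± 0.65 CPM, and lowest in young leaf of both arms, at 0.51 ± 0.20 CPM under deficit and 0.53 ± 0.25 CPM under control. Its lowest group without the library that stands apart was mature day 10 deficit leaf, at 0.44 ± 0.15 CPM (n = 2). CYP707A4 was highest in mature day 8 and young control leaf and lowest in mature day 8 deficit leaf, at 1.57 ± 0.27 CPM, or in mature day 10 deficit leaf, at 1.32 ± 0.04 CPM, without that library. With all libraries in and the 10 groups placed in order of their means, neighbours overlapped in their libraries at 7 of 9 steps for CYP707A1, 8 for CYP707A2, 8 for CYP707A3 and 7 for CYP707A4.

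The ratio of the counts of 2 genes within a library does not depend on library size or scaling. Only its difference between libraries is read here, because it also depends on transcript length. In young leaf the log2 ratio of CYP707A1 to CYP707A2 counts was 2.52 ± 0.06 in deficit libraries and 0.75 ± 0.01 in control libraries (SD, n = 3 each). In mature leaf at day 10 it was 2.22 and 2.26 in deficit replicates 2 and 3 and 0.94 in replicate 1, against 0.83 and 0.84 in control libraries. At day 8 it was 2.85 and 2.82 in deficit libraries, against 2.11 and 1.81 in control libraries. At day 5 the order was the opposite, with a mean of 3.08 ± 0.17 in deficit and 3.60 ± 0.24 in control libraries (n = 3 each). At day 4 deficit libraries were again higher, with a mean of 2.99 ± 0.20 against 2.54 ± 0.26 in control libraries (n = 3 each).

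The log2 ratio of CYP707A1 to CYP707A4 counts was 4.94 ± 0.18 in deficit libraries and 2.21 ± 0.08 in control libraries at day 8 (SD, n = 2 each). In young leaf it was 4.37 ± 0.13 in deficit and 2.29 ± 0.13 in control libraries (n = 3 each). At day 5 it was 4.73 ± 0.12 in deficit and 4.01 ± 0.24 in control libraries (n = 3 each). At day 4 the arms overlapped, at 4.68 ± 0.30 in deficit and 4.40 ± 0.18 in control libraries (n = 3 each). At mature day 10 it was 4.96 and 4.71 in deficit replicates 2 and 3, and 2.25 in replicate 1, against 2.12 and 2.02 in control libraries. Replicate 1 thus lay nearer to the control libraries than to its own group in both ratios.

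**Figure D3:**
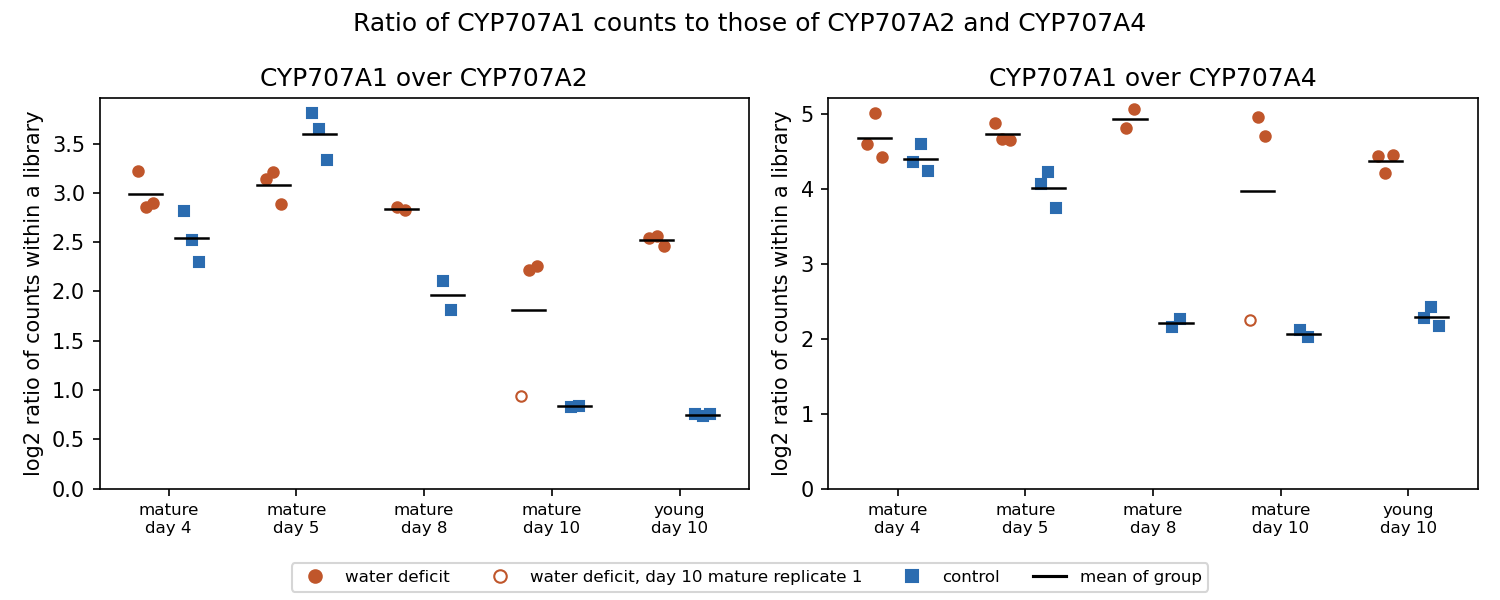
Log2 ratio of CYP707A1 counts to CYP707A2 counts (left) and to CYP707A4 counts (right) within each library (vertical axes, from 0), by day and leaf age, with deficit-labelled libraries as circles, control-labelled libraries as squares and a bar at each group mean. In young leaf the CYP707A1 to CYP707A2 ratio averages 2.52 in deficit and 0.75 in control libraries, and the open circle is mature day 10 deficit replicate 1, at 0.94.

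Across the 27 libraries, which share groups and days, log2 CPM of CYP707A2 and CYP707A4 correlated at r = 0.60 (Spearman's rho = 0.52). For CYP707A3 and CYP707A4 it was r = 0.16 (rho = 0.096). CYP707A1 correlated negatively with each of the others, at r = -0.35 with CYP707A2, -0.19 with CYP707A3 and -0.21 with CYP707A4 (rho = -0.48, -0.16 and -0.15). CYP707A2 and CYP707A3 also correlated negatively, at r = -0.30 (rho = -0.21). These r were, without the library that stands apart and in the same order, 0.60, 0.16, -0.38, -0.16, -0.21 and -0.30. These are descriptions over libraries of 10 groups and carry no p. Among 12110 well-expressed other loci, the pattern most like CYP707A4 was that of Solyc02g094050.5 (r = 0.958), and that most like CYP707A1 was Solyc02g085760.2 (r = 0.947). Solyc02g094050.5 averaged 6.82 CPM in deficit and 28.1 CPM in control libraries at mature day 8. The closest to CYP707A2 was Solyc07g015860.3 (r = 0.907), and the closest to CYP707A3 was Solyc11g071970.2, at a lower r of 0.77. The second closest loci had r of 0.943 for CYP707A1, 0.881 for CYP707A2, 0.763 for CYP707A3 and 0.952 for CYP707A4. Without the library that stands apart, the locus most like each gene with all libraries had r of 0.936 for CYP707A1, 0.921 for CYP707A2, 0.771 for CYP707A3 and 0.961 for CYP707A4. No names are paired with these loci in the sources used here.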

How the data were processed

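Leaf polyadenylated RNA from 27 libraries was sequenced as paired reads of 100 nt, per the labels' protocols. The authors deposited raw read counts for 34688 loci, of which 10322 had no count in any library; the aligner, counter, annotation and strand setting are not given in the sources used here. Reads of similar P450 genes could therefore have been split or discarded. Library totals ran from 14725924 to 19642202 counts.

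Counts were scaled by TMM (factors 0.943 to 1.07), filtered with filterByExpr (19087 loci kept) and tested with the quasi-likelihood test of edgeR 4.0.16 in R 4.3.3. The fit had 1 coefficient for each of 10 groups and no replicate block. P-values were adjusted by Benjamini-Hochberg over all tested loci, and calls were made under 0.05. SE is the absolute log2 fold change over the square root of F.

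Same-numbered replicates did not deviate together: 3 of 13 pairs correlated over 0.1, between -0.140 and 0.158. Alternatives were RLE scaling, no filter, DESeq2 1.42.0, the replicate block, only the compared groups, and each library left out; leaving out a further library without replicate 1 of the mature day 10 deficit group was chosen after seeing the data. Likeness is Pearson's r of log2 CPM with a prior count of 2, over loci with a mean of at least 3; the rule takes 2 loci for each gene, and only the first is named. Poisson intervals cover counting error only.

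The members and lists were chosen with earlier results of these data known. Lists of other ABA pathway genes and of leaf and fruit markers are not reported, since no table used here pairs locus identifiers with names (0 matched), so the labelled tissue was not checked here.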

Additional observations from a re-analysis of the deposited data

Results flagged for a closer look

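The difference between the arms was called as changing over the days of mature leaf for 3 of the 4 genes, by the edgeR quasi-likelihood test of 3 interaction terms, which called 57.0% of all loci. The adjusted p was 0.0422 for CYP707A1, 0.00703 for CYP707A2 and 0.00293 for CYP707A4. The call of CYP707A1 held in only 4 of the 20 fits without another mature library, and not with the replicate block (0.0617) or in a fit of the compared groups alone (0.0745). At CYP707A2, the difference between the arms also differed between leaf ages at day 10, by -0.81 on the log2 scale (young minus mature, edgeR, adjusted p = 0.0148), with a fold change of -1.07 in young leaf and -0.26 in mature leaf. In that direction 8.78% of loci were called. The call did not hold without mature control replicate 2 or in a fit of the compared groups alone. In young leaf all 3 deficit libraries lay below all 3 control libraries of CYP707A2, and in mature leaf all 3 lay below both controls.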

How the results depend on the processing

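RLE scaling left all 80 results (4 genes in 20 comparisons) on their side of the threshold, with their direction, and DESeq2 and the lack of a filter each left 78 there. DESeq2 also called CYP707A4 in young against mature control leaf (0.83, adjusted p = 0.0414) and the CYP707A2 arms difference, day 5 minus day 4 (adjusted p = 0.0373). Without the filter, the CYP707A4 arms difference, day 10 minus day 8 (adjusted p = 0.0563), and its control step between those days (0.0521) were not called. The replicate block left 75, and the labels do not say whether its numbers pair the libraries. It lost the calls of CYP707A1 for the interaction with day (adjusted p = 0.0617) and for deficit day 10 minus day 8 (0.0539). The call of CYP707A3 over days under control was also lost (0.056). The block turned the sign of uncalled steps of CYP707A3 (deficit day 8 minus day 5, -0.017) and CYP707A2 (control day 10 minus day 8, -0.014). A fit of the compared groups alone gained 8 calls and lost 7, and the shares of all loci called in these fits are not given here. Gained were CYP707A1 at day 8 (0.32), CYP707A4 in young against mature control leaf (0.81) and 6 steps between days. Lost were CYP707A1 (0.77) and CYP707A4 (-1.01) at mature day 10, the interaction of CYP707A1 with day (adjusted p = 0.0745) and of CYP707A2 with leaf age (-0.81), CYP707A1 in young against mature deficit leaf (0.98), and the steps from day 8 to day 10 of the CYP707A4 arms difference (1.36) and of CYP707A1 under deficit (-0.62). The cause was not tested. Depth limits CYP707A3 most.

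Libraries were also left out, alone or along with the library that stands apart; where a group was left with 1 library, that library is assumed to vary like the other groups. Log2 values, or adjusted p where named, had these ranges for a selection of results. The arms difference at mature day 4 ran from -0.29 to 0.0065 for CYP707A4 and 0.064 to 0.26 for CYP707A1. Control day 5 minus day 4 ran from -0.40 to 0.099 for CYP707A3. The interaction with day (adjusted p) ran from 1.75e-07 to 0.129 for CYP707A1 and 0.00546 to 0.336 for CYP707A3. The arms difference at mature day 5 ran from -0.28 to 0.22 for CYP707A3, -1.002 to -0.78 for CYP707A4 and 0.22 to 0.51 for CYP707A2. The test over days under control (adjusted p) ran from 0.00200 to 0.443 for CYP707A3. Control day 10 minus day 8 ran from -0.040 to 0.16 for CYP707A2. The arms difference at mature day 8 ran from -0.64 to -0.45 for CYP707A2, -1.88 to -0.79 for CYP707A3 and 0.27 to 0.38 for CYP707A1. Deficit day 8 minus day 5 ran from -0.55 to 0.54 for CYP707A3. Deficit day 10 minus day 8 ran from -1.37 to 0.26 for CYP707A3 and -0.43 to 0.74 for CYP707A4. The arms difference at mature day 10 ran from 0.55 to 1.16 for CYP707A1, -1.82 to -0.71 for CYP707A4 and -1.59 to -0.38 for CYP707A3. The interaction with leaf age ran from -0.91 to -0.60 for CYP707A2, -0.65 to 0.46 for CYP707A4 and -0.46 to 0.15 for CYP707A1. The arms difference, day 10 minus day 8 ran from -0.46 to 1.16 for CYP707A3. The test over days under deficit (adjusted p) ran from 0.00281 to 0.747 for CYP707A4 and 0.0413 to 0.645 for CYP707A3. CYP707A1 ran from -0.85 to -0.24 for deficit day 10 minus day 8 and from 0.59 to 1.22 for young minus mature under deficit. Young minus mature under deficit ran from 0.24 to 0.54 for CYP707A2, -0.65 to 0.57 for CYP707A3 and 0.19 to 1.27 for CYP707A4. Young minus mature under control ran from 0.71 to 0.96 for CYP707A4 and -1.42 to -0.71 for CYP707A3. The arms difference in young leaf ran from -0.40 to 0.40 for CYP707A3.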
